A study of Homo sapiens with 6 samples.

Results

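TGF-beta signalling and epithelial-mesenchymal transition (EMT) genes were followed by RNA-seq in Huh7, a cell line established from a human hepatocellular carcinoma, with 3 libraries of cells overexpressing HK1 and 3 of control cells. The 37 genes were chosen by name from the 79172 gene names of the count table, as TGF-beta and activin ligands, receptors, SMADs, EMT factors and genes of mesenchymal cells and matrix remodelling. HK1 encodes hexokinase 1, which phosphorylates glucose, and the study asked what raising it does in liver cancer cells. Per the labels both groups are Huh7 cells with the genotype given as overexpressing HK1 or as control. The sources used here do not give how HK1 was introduced, what the controls carried or whether the cells are 1 clone or a pool. No label says whether the replicates were grown as separate cultures, so p-values measure the spread between these libraries, which may be technical.

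TGF-beta is secreted bound to a latency peptide, and latent TGF-beta binding proteins tether this complex to the matrix until it is activated. The active ligand binds a type II receptor, which phosphorylates a type I receptor, whose kinase activates SMAD2 and SMAD3, and these enter the nucleus with SMAD4. Activins signal through the same SMADs by their own receptors and are held back by follistatins. In epithelial cells, hepatocytes included, the pathway can induce SNAI and ZEB transcription factors, which repress epithelial genes, while vimentin, fibronectin, proteases and their inhibitors change with the switch to a mesenchymal state.

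Libraries held 16771835 to 20823072 counts. HK1 was at 491, 511 and 527 CPM in HK1-overexpressing libraries and at 0.655, 0.882 and 0.790 CPM in controls, where CPM is the count scaled to the library's total after TMM (trimmed mean of M values) normalization. The 9 markers of hepatocyte-derived tumour cells were all tested and summed to 11805 to 12111 CPM in HK1-overexpressing and 14749 to 15537 CPM in control libraries, and 5 of the 9 fell (edgeR), among them ALB and AFP. The 8 stellate cell and fibroblast markers summed to 2.80 to 3.63 CPM in HK1-overexpressing and 3.48 to 4.26 CPM in control libraries, and DCN had 2 counts over all 6. DES had 13, 11 and 13 counts in HK1-overexpressing libraries, against 5, 5 and 4 counts in controls. DES was tested through the HK1-overexpressing group, since no control library reached the minimum of the filter on low counts. It was not called (log2 1.17, edgeR adjusted p = 0.0781), and neither was COL3A1, which went the other way (log2 -0.47, edgeR adjusted p = 0.218). PDGFRB, not tested, also went the other way, with 3, 7 and 9 counts in HK1-overexpressing libraries, against 11, 8 and 10 counts in controls. Of 5 endothelial markers, CDH5, KDR and TEK had 0 counts in every library, and the list summed to 4.54 to 5.41 CPM in HK1-overexpressing and 4.03 to 6.26 CPM in control libraries. PECAM1 alone was tested and was not called. It had 87, 112 and 114 counts in HK1-overexpressing libraries, against 80, 90 and 102 counts in controls. Of 5 blood cell markers CD163 had 0 counts, and LYZ alone was tested and fell. The list summed to 43.8 to 48.5 CPM in HK1-overexpressing and 61.1 to 71.4 CPM in control libraries. LYZ made up nearly all of that sum, at 42.9, 46.0 and 48.1 CPM in HK1-overexpressing libraries, against 65.5, 61.0 and 71.1 CPM in controls. PTPRC had 3, 2 and 2 counts in HK1-overexpressing libraries, against 1 count in each control. CD68 had 8, 2 and 4 counts against 2, 0 and 0, and CSF1R 7, 6 and 2 against 5, 1 and 4. The part of other cell types in the results was not tested, and in bulk samples fewer cells of a type and less RNA per cell cannot be told apart. Control libraries differed more among themselves than HK1-overexpressing ones, with a chi-square per degree of freedom of 1.58 to 2.28 between HK1-overexpressing and 5.08 to 11.3 between control libraries. The median coefficient of variation of the tested members was 2.85% in HK1-overexpressing and 8.90% in control libraries. Control replicate 2 was the lowest control for 21 of the 30 tested members, and for 38.1% of all tested genes. Its part in the results was not tested beyond leaving it out.

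Of the 37 genes, 30 passed the filter on low counts, and TIMP1 did so through the HK1-overexpressing group, since only 1 control library reached the minimum. By edgeR's quasi-likelihood test with Benjamini-Hochberg adjustment over all tested genes at 0.05, 7 members rose in HK1-overexpressing cells. These were SMAD3, the EMT factors SNAI1 and ZEB2, the intermediate filament gene VIM, the activin antagonist FSTL3 and the metalloproteinase inhibitors TIMP1 and TIMP2. The latent TGF-beta binding protein gene LTBP3 and the fibronectin gene FN1 fell. The 9 calls are 30% of the 30 tested members, with 23.3% higher and 6.67% lower, where 8.02% of all 16734 tested genes were called, 3.87% higher and 4.15% lower. The members were chosen with earlier results of these data known, and the shares include TIMP1. They describe the members and are not support. The median log2 fold change of the tested members was 0.13, against 0.01 over all tested genes, and the median size of change was 0.17 against 0.12. The groups did not overlap for 12 members that were higher and 4 that were lower in HK1-overexpressing cells, and overlapped for 14. Over all tested genes 14% were higher without overlap and 13.9% lower. By size of change, SMAD3 ranked 647 of the 648 rises, VIM 644, FSTL3 371, ZEB2 315, TIMP2 254, SNAI1 177 and TIMP1 19, and of the 694 falls LTBP3 ranked 237 and FN1 548. The rises numbered 4 without any 1 HK1-overexpressing replicate or without control replicate 3, and 11 without control replicate 1. The falls numbered 1 without any 1 HK1-overexpressing replicate or without control replicate 3, and 3 without control replicate 2. The counts over all tested genes moved likewise. Their rises numbered 286 to 371 without any 1 HK1-overexpressing replicate or without control replicate 3, and 1172 without control replicate 1. Their falls numbered 250 to 438 in the former fits and 983 without control replicate 2.

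**Figure D1:**
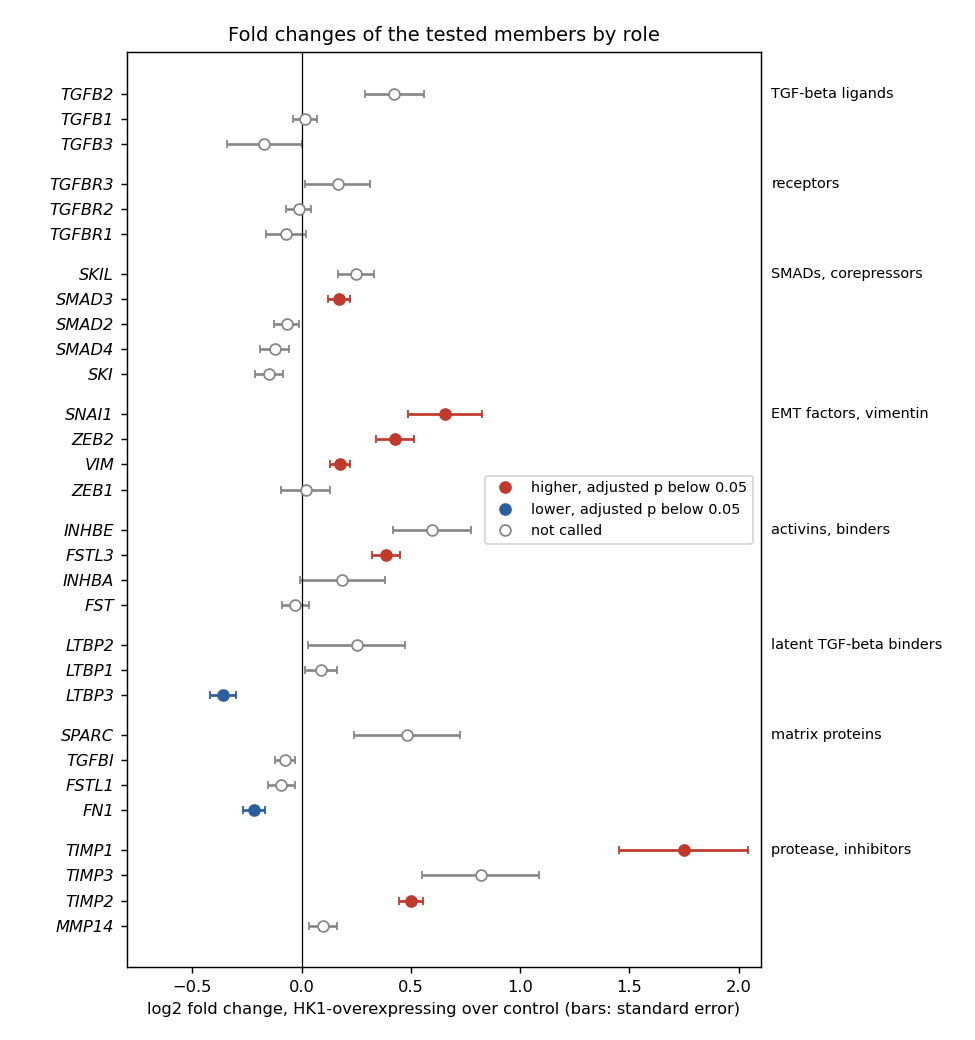
Log2 fold change of each of the 30 tested members, HK1-overexpressing over control, with standard errors as bars, grouped by role. Filled points are the 7 members called higher (red) and the 2 called lower (blue), and open points were not called. TIMP1 lies farthest to the right at 1.75 and LTBP3 farthest to the left at -0.36.

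**Figure D2:**
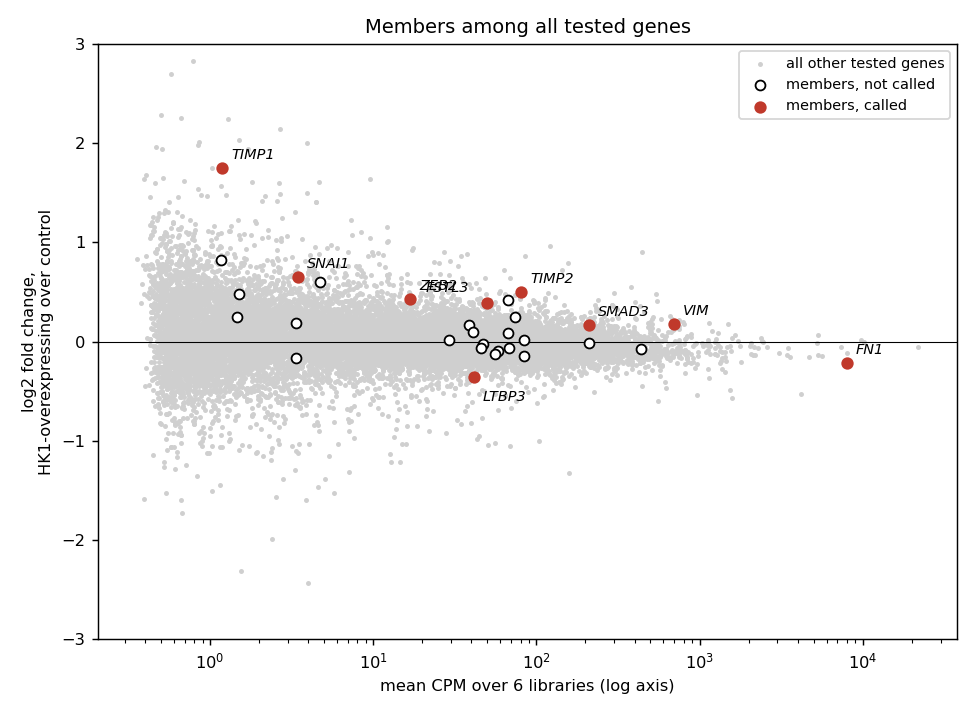
Log2 fold change (HK1-overexpressing over control) against mean CPM on a log axis for all tested genes (grey), members not called (open) and members called (red). HK1 and 10 other genes beyond a log2 change of 3 in size are not drawn. TIMP1 and SNAI1 lie at low levels, and VIM and FN1 at the high end with small changes.

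FSTL3, LTBP3, TIMP1 and TIMP2 kept their call under every alternative that gave them a value, and the bases before the transcription start are shown for the 3 of them that have an entry in the RefSeq promoter table (GRCh38.p14). They are FSTL3 at chr19:676142-676391 on the plus strand, LTBP3 at chr11:65558360-65558609 on the minus strand and TIMP1 at chrX:47582186-47582435 on the plus strand, each 250 bases and written from 5′ to 3′. Capitals mark matches to the motifs searched on both strands, which were the SMAD box CAGAC or GTCTG, the GC-rich SMAD motif GGCGCC, the AP-1 motif TGANTCA and the E-boxes CACCTG or CAGGTG, to which SNAI and ZEB factors can bind. No motif contains another, and LTBP3 has 2 listed starts, of which the first is used.
FSTL3: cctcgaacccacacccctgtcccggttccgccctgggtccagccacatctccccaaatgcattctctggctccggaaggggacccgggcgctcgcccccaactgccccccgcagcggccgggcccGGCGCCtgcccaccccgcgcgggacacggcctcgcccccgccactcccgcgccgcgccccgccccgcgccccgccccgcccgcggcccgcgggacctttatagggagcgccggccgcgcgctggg
LTBP3: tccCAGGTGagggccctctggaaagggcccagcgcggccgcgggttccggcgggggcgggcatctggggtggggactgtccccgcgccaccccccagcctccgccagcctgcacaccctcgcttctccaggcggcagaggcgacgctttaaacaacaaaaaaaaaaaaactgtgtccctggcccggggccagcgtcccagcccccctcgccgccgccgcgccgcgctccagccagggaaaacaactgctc
TIMP1: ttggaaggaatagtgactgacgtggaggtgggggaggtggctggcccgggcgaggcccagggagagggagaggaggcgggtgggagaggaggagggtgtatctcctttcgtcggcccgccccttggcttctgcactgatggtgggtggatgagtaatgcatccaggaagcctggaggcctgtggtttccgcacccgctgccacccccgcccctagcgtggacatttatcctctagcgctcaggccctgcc
FSTL3 has the GC-rich SMAD motif 125 bases before the start, LTBP3 has an E-box 247 bases before it, and TIMP1 has no match in the 250 bases. Windows of 300 bases, which add 50 after the start, were found for 30 of the 37 members and 7 of the 9 called ones, taking the first-listed start of each gene. Of those 7, SMAD3 alone held a SMAD box, where 43.1% of 11212 windows of tested genes held one. SMAD3, VIM and FSTL3 held the GC-rich SMAD motif (30.2% of windows), LTBP3 alone held an E-box (18.3%), and none held the AP-1 motif (4.75%). A match describes letters, not binding, and no match says only that these letters are not in the window.

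Among the ligands, none of the 3 TGF-beta genes was called. TGFB1 was the most abundant per exon length at 25.9 CPM per kilobase in HK1-overexpressing and 25.7 CPM per kilobase in control cells. Its level was 85.5, 86.3 and 82.3 CPM in HK1-overexpressing libraries, against 82.5, 86.8 and 82.1 CPM in controls. The groups overlapped, and the log2 change was 0.02 with a 95% interval of -0.10 to 0.13 (edgeR adjusted p = 0.906). TGFB2 was at 74.0, 77.7 and 77.5 CPM in HK1-overexpressing libraries, against 69.1, 45.4 and 55.9 CPM in controls. All HK1-overexpressing values lay above all controls, but the controls were widely spread and the log2 change of 0.42 (SE 0.135) was not called (edgeR adjusted p = 0.115). The call turns on the settings: TGFB2 was past the threshold under 7 of 15 alternatives, among them DESeq2 (adjusted p = 0.00269), limma-voom (adjusted p = 0.0371), without control replicate 1 (edgeR adjusted p = 2.15e-05) and without control replicate 2 (edgeR adjusted p = 0.0221). Of its counted exon bases 38.9% are shared with other genes, among them TGFB2-AS1, which had 8, 13 and 7 counts in HK1-overexpressing libraries and 6, 3 and 4 counts in controls. TGFB3 was scarce, at 3.18 ± 0.341 CPM in HK1-overexpressing and 3.58 ± 0.662 CPM in control cells (SD, n = 3 each), with overlapping groups.

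None of the 3 tested receptor genes was called. TGFBR2, the type II receptor, was at 207, 212 and 209.9 CPM in HK1-overexpressing libraries, against 228, 194 and 213 CPM in controls. The HK1-overexpressing values lay inside the range of the controls, and the log2 change was -0.01 with a 95% interval of -0.14 to 0.11 (edgeR adjusted p = 0.924). TGFBR1, the type I receptor, averaged 44.7 ± 4.08 CPM in HK1-overexpressing and 46.8 ± 5.70 CPM in control cells (SD, n = 3 each), with a log2 interval of -0.27 to 0.13. TGFBR3, the co-receptor betaglycan, was at 40.3, 41.6 and 40.5 CPM in HK1-overexpressing libraries, against 44.8, 28.03 and 35.9 CPM in controls. It was called only without control replicate 1, where the log2 change was 0.36 (edgeR adjusted p = 0.00864). ENG, the endothelial co-receptor endoglin, did not pass the filter, with 7, 9 and 9 counts in HK1-overexpressing libraries and 16, 6 and 11 counts in controls.

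Of the signal transducers SMAD3 rose, by a small amount. SMAD3 (chromosome 15, 67063763 to 67195173, hg38) was at 222, 219.6 and 223 CPM in HK1-overexpressing libraries, against 203, 189 and 198 CPM in controls. The 3 HK1-overexpressing libraries agreed within a few CPM and lay above every control, for a log2 change of 0.17 (SE 0.0482, edgeR adjusted p = 0.0421). The call was lost without any 1 HK1-overexpressing replicate (edgeR adjusted p = 0.151, 0.175 and 0.171 without replicates 1, 2 and 3) and without control replicate 3 (edgeR adjusted p = 0.108), at log2 changes of 0.17 to 0.18. It was also lost without robust dispersion (edgeR adjusted p = 0.0508). SMAD2, its partner, averaged 65.9 ± 1.86 CPM in HK1-overexpressing and 69.1 ± 2.68 CPM in control cells (SD, n = 3 each), and the shared SMAD4 averaged 53.6 ± 1.07 CPM in HK1-overexpressing and 58.3 ± 5.08 CPM in control cells. Neither was called, with log2 intervals of -0.19 to 0.05 for SMAD2 and -0.27 to 0.02 for SMAD4. SMAD4 was called only without control replicate 2 (log2 -0.19, edgeR adjusted p = 0.0252).

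The corepressors SKI and SKIL, which bind SMADs and block their transcription, lay on opposite sides. SKI was at 75.3, 79.7 and 83.8 CPM in HK1-overexpressing libraries, against 94.7, 83.9 and 85.9 CPM in controls, with the groups just apart (log2 -0.15, edgeR adjusted p = 0.182). SKIL was at 78.4, 83.0 and 80.2 CPM in HK1-overexpressing libraries, against 74.4, 57.5 and 71.2 CPM in controls. SKIL was not called at a log2 change of 0.25 (edgeR adjusted p = 0.0859). It was called without control replicate 1 (log2 0.33, edgeR adjusted p = 0.00633) and with no filter (log2 0.26, edgeR adjusted p = 0.00175). PMEPA1, a TGF-beta target that restrains the pathway, had 0 counts in all 6 libraries. A count of 0 still allows 3 counts, or 0.144 to 0.179 CPM depending on the library, for counting error only.

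In the EMT group 3 of the 4 tested genes rose and 0 fell, where 3.87% of all tested genes rose. Without any 1 HK1-overexpressing replicate or without control replicate 3, 1 of the 4 was called. SNAI1 (Snail), which represses E-cadherin, lies on chromosome 20 from 49982980 to 49988886. It had 96, 85 and 79 counts in HK1-overexpressing libraries, against 56, 38 and 49 counts in controls, or 4.23 ± 0.560 CPM in HK1-overexpressing and 2.68 ± 0.393 CPM in control cells (SD, n = 3 each). The log2 change was 0.66 (SE 0.169, edgeR adjusted p = 0.0277). The groups did not overlap, but the gene is scarce and the call was lost without HK1-overexpressing replicate 1 or 2 (edgeR adjusted p = 0.139 and 0.0804), without control replicate 2 or 3 (edgeR adjusted p = 0.0539 and 0.0554) and with DESeq2 (adjusted p = 0.0701).

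ZEB2, a zinc finger repressor of epithelial genes on chromosome 2 from 144364364 to 144521057, was at 18.9, 18.5 and 20.5 CPM in HK1-overexpressing libraries, against 14.6, 12.9 and 15.5 CPM in controls. The groups did not overlap. The log2 change was 0.43 (SE 0.0875, edgeR adjusted p = 0.00769), and the call was lost only without HK1-overexpressing replicate 3 (edgeR adjusted p = 0.0599). Its paralog ZEB1 was at 28.3, 29.3 and 29.95 CPM in HK1-overexpressing libraries, against 31.1, 22.7 and 32.5 CPM in controls. ZEB1 values overlapped, with a log2 change of 0.02 (95% interval -0.23 to 0.27, edgeR adjusted p = 0.945), and its sign turned without control replicate 2 (log2 -0.12). SNAI2 and TWIST1, further EMT transcription factors, had at most 1 count in any library, so that both were near or below what this depth detects in either group.

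VIM, on chromosome 10 from 17228241 to 17237593, encodes vimentin, the intermediate filament of mesenchymal cells, and was already abundant in controls. Its level per exon length was exceeded by 1.52% of tested genes. VIM was at 745, 732 and 731 CPM in HK1-overexpressing libraries, against 624, 669 and 661 CPM in controls. Every HK1-overexpressing library lay above every control, and the log2 change was 0.18 (SE 0.0452, edgeR adjusted p = 0.0273), or 1.13-fold. The call was lost without any 1 HK1-overexpressing replicate (edgeR adjusted p = 0.139, 0.143 and 0.115 without replicates 1, 2 and 3) and without control replicate 3 (edgeR adjusted p = 0.0705). The exons of VIM share 27.8% of their bases with other genes, and the antisense VIM-AS1 had 34 to 46 counts in HK1-overexpressing and 33 to 34 counts in control libraries. These are fragments that the count could assign to VIM-AS1, and its part in the count of VIM was not tested.

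**Figure D3:**
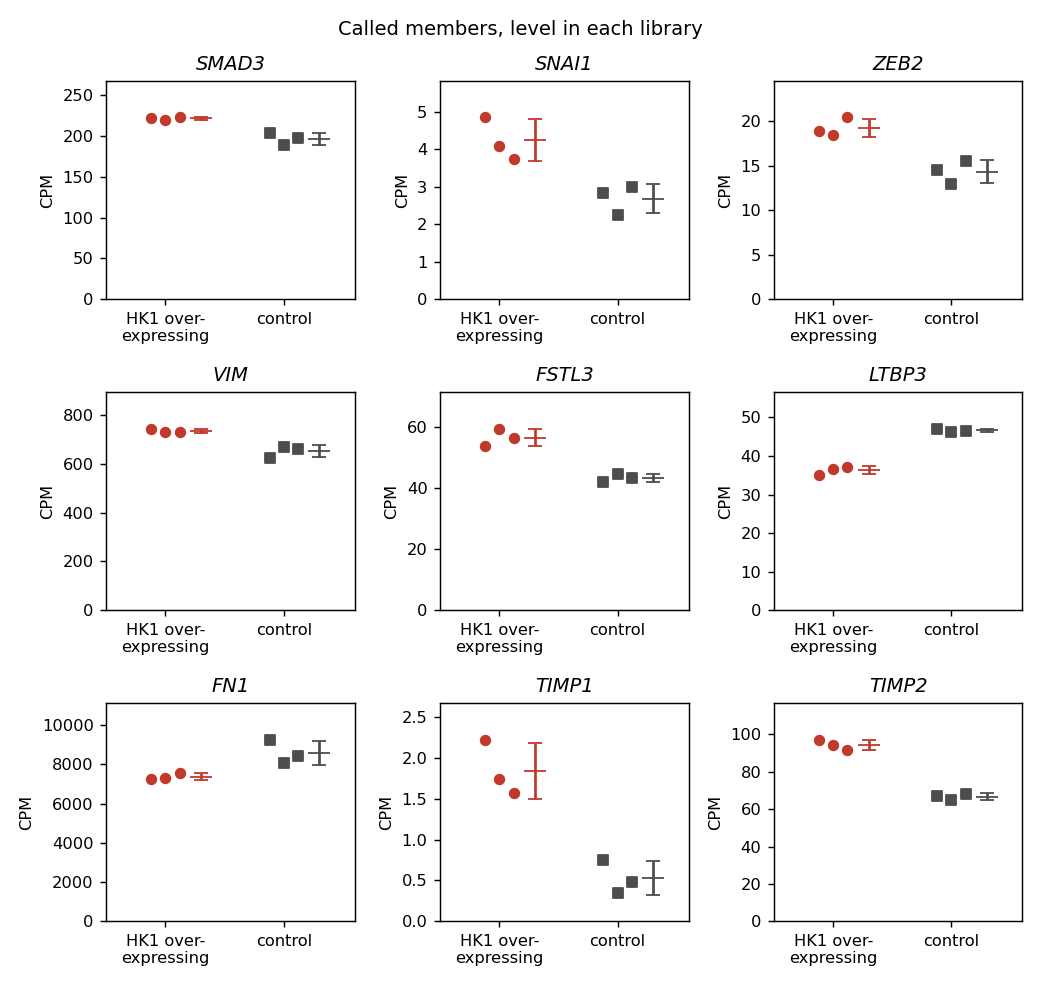
Level in CPM of the 9 called members in each library, HK1-overexpressing (red circles) left of control (grey squares), with the mean and SD of 3 libraries beside them. Each axis starts at 0. The groups do not overlap in any panel, and relative to their levels the group means lie farthest apart for TIMP1 and closest for SMAD3 and VIM.

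Of the activin genes FSTL3 rose. FSTL3, on chromosome 19 from 676392 to 683392, encodes a secreted follistatin-like protein that binds and neutralises activins. It was at 53.8, 59.6 and 56.4 CPM in HK1-overexpressing libraries, against 42.2, 44.6 and 43.2 CPM in controls. The lowest HK1-overexpressing library lay well above the highest control, and the log2 change was 0.39 (SE 0.0625, edgeR adjusted p = 0.00143). The call held under all 15 alternatives, with log2 changes of 0.35 to 0.43. FST, follistatin itself, was at a similar level per exon length, with 16.9 CPM per kilobase in HK1-overexpressing and 17.3 CPM per kilobase in control cells, and was not called (log2 -0.03, 95% interval -0.16 to 0.10, edgeR adjusted p = 0.838).

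The activin subunit genes were scarce. INHBE, the liver-expressed subunit beta E, had 106, 101 and 145 counts in HK1-overexpressing libraries, against 90, 48 and 64 counts in controls, or 5.70 ± 1.05 CPM in HK1-overexpressing and 3.75 ± 0.865 CPM in control cells (SD, n = 3 each). Every HK1-overexpressing value was above every control, but INHBE was not called at a log2 change of 0.60 (edgeR adjusted p = 0.0591). It passed the threshold under 4 alternatives, among them without control replicate 1 (log2 0.77, edgeR adjusted p = 0.00859). INHBE shares 22.9% of its exon bases with another gene, whose part in the count was not tested. INHBA, subunit beta A, was at 3.59 ± 0.623 CPM in HK1-overexpressing and 3.16 ± 0.773 CPM in control cells (SD, n = 3 each), with overlapping groups. INHBB, subunit beta B, is not one of the 37 and is given with the further pathway genes.

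LTBP3 fell, and the other tested latent TGF-beta binding protein genes were not called. LTBP3, on chromosome 11 from 65538559 to 65558930, was at 35.1, 36.7 and 37.0 CPM in HK1-overexpressing libraries, against 47.1, 46.3 and 46.4 CPM in controls. Both groups were tight and far apart, with a log2 change of -0.36 (SE 0.0603, edgeR adjusted p = 0.00185), and the call held under all 15 alternatives. LTBP1, the most abundant of them per exon length at 9.38 CPM per kilobase in HK1-overexpressing and 8.80 CPM per kilobase in control cells, overlapped between groups (log2 0.09, 95% interval -0.07 to 0.25, edgeR adjusted p = 0.522). LTBP2 was at 1.59 ± 0.0734 CPM in HK1-overexpressing and 1.34 ± 0.266 CPM in control cells (SD, n = 3 each) and overlapped. LTBP4 had 5, 3 and 4 counts in HK1-overexpressing libraries and 3, 7 and 3 counts in controls and was not tested. Whether LTBP3 differs from LTBP1 and LTBP2 in its change was not tested.

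FN1 and TGFBI were the most abundant matrix genes, and FN1 fell. FN1, on chromosome 2 from 215360440 to 215436073, encodes fibronectin, which hepatocytes secrete into plasma and mesenchymal cells lay down as matrix. It ranked 66 of 16734 tested genes per exon length. FN1 was at 7236, 7322 and 7582 CPM in HK1-overexpressing libraries, against 9264, 8073 and 8425 CPM in controls. The highest HK1-overexpressing library was below the lowest control, and the log2 change was -0.22 (SE 0.0512, edgeR adjusted p = 0.0167). The call was lost without HK1-overexpressing replicate 1, 2 or 3 (edgeR adjusted p = 0.127, 0.108 and 0.0607) and without control replicate 3 (edgeR adjusted p = 0.0588). The hepatocyte-line markers given above fell in the same libraries, and their part in the change of FN1 was not tested.

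TGFBI, a secreted matrix protein named for its induction by TGF-beta, was at 427, 423 and 433 CPM in HK1-overexpressing libraries, against 434, 473 and 447 CPM in controls. The groups were just apart but the gene was not called (log2 -0.08, 95% interval -0.18 to 0.02, edgeR adjusted p = 0.383). FSTL1, a secreted glycoprotein, averaged 56.6 ± 0.508 CPM in HK1-overexpressing and 60.3 ± 3.58 CPM in control cells (SD, n = 3 each). SPARC, a collagen-binding matrix protein, had 34, 41 and 33 counts in HK1-overexpressing libraries and 28, 25 and 14 counts in controls, and was not called (edgeR adjusted p = 0.260). POSTN, periostin, had 0 counts in every library, under the same limit as PMEPA1.

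**Figure D4:**
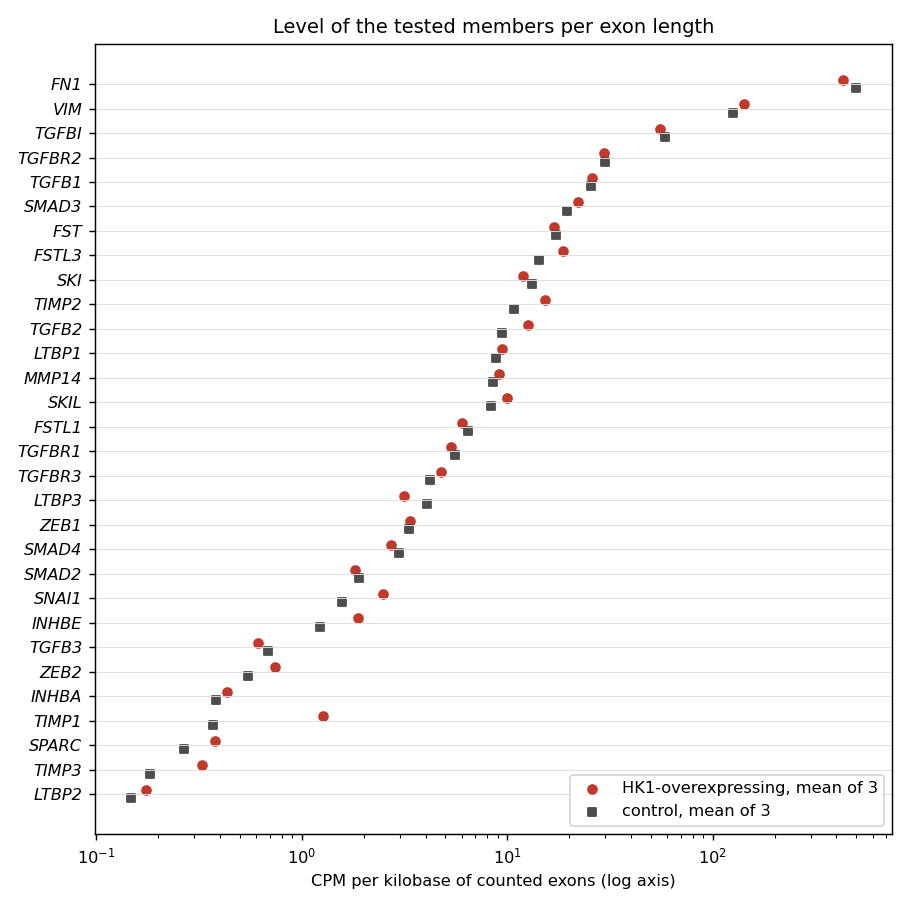
Mean level of the 30 tested members in CPM per kilobase of counted exons, on a log axis, ordered by the control level, with HK1-overexpressing cells (red circles) above control cells (grey squares) in each row. FN1 leads at 429 in HK1-overexpressing and 499 in control cells, LTBP2 is lowest at 0.175 and 0.148, and TIMP1 shows the widest gap between groups.

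Among proteases and their inhibitors, 2 of the 4 tested members rose and 0 fell, where 3.87% of all tested genes rose. Both calls were of inhibitors, but MMP14 was the only protease tested among the members. Whether inhibitors and proteases differ was not tested. Of the further pathway genes given below, the protease gene PLAU rose, while FURIN, ADAMTS1, MMP11, MMP15, MMP16 and MMP24 were not called. TIMP proteins bind and block matrix metalloproteinases. TIMP2, on chromosome 17 from 78852977 to 78925387, had the smallest p of all members and was at 97.2, 94.2 and 91.9 CPM in HK1-overexpressing libraries, against 67.0, 64.8 and 68.3 CPM in controls. The groups were far apart for their spread, with a log2 change of 0.50 (SE 0.0545, edgeR adjusted p = 5.43e-05), or 1.42-fold, and the call held under all 15 alternatives. CEP295NL, which shares exon bases with TIMP2, had at most 3 counts in any library.

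TIMP1, on the X chromosome from 47582408 to 47586789, had the largest change of the tested members, at a low level in both groups. It had 44, 36 and 33 counts in HK1-overexpressing libraries, against 15, 6 and 8 counts in controls, or 1.84 ± 0.340 CPM in HK1-overexpressing and 0.532 ± 0.205 CPM in control cells (SD, n = 3 each). Every HK1-overexpressing count was above every control count, and the log2 change was 1.75 (SE 0.295, edgeR adjusted p = 0.00188). Pooled over libraries and scaled for depth, the counts stood in a ratio of 3.46, with an exact binomial 95% interval of 2.28 to 5.40 for counting error only. The call held under the 13 alternatives that tested it, while DESeq2 gave no adjusted p and a minimum mean of 5 CPM left it out. TIMP1 passed the filter through the group where it is high, so its call adds nothing to the count of rises as support.

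TIMP3 was as scarce, with 31, 27 and 34 counts in HK1-overexpressing libraries, against 18, 18 and 9 counts in controls. The groups did not overlap, but TIMP3 was not called at a log2 change of 0.82 (SE 0.267, edgeR adjusted p = 0.0754), and passed only without control replicate 2 (edgeR adjusted p = 0.0406). TIMP4, the remaining family gene and not one of the 37, rose to 27.3 ± 1.64 CPM in HK1-overexpressing cells, against 17.02 ± 0.714 CPM in control cells (SD, n = 3 each, log2 0.68, edgeR adjusted p = 7.73e-05). TIMP1, TIMP3 and TIMP4 each lie inside a synapsin gene on the opposite strand, and the counting used no strand. SYN1 and SYN3, around TIMP1 and TIMP3, had at most 10 counts in any library, and TIMP1 and TIMP3 share 0 exon bases with other genes. SYN2 shares 14.2% of the exon bases of TIMP4 and was at 3.74, 3.95 and 3.94 CPM in HK1-overexpressing libraries, against 2.57, 2.35 and 3.10 CPM in controls (log2 0.54, edgeR adjusted p = 0.0519). The part of SYN2 transcription in the rise of TIMP4 was not tested.

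MMP14, a membrane-anchored metalloproteinase that activates MMP2 together with TIMP2, was at 39.7, 43.2 and 44.0 CPM in HK1-overexpressing libraries, against 38.4, 40.8 and 39.5 CPM in controls. The groups overlapped, and the log2 change was 0.10 with a 95% interval of -0.04 to 0.24 (edgeR adjusted p = 0.427). MMP2, gelatinase A, had 1 count in 1 HK1-overexpressing library and 0 counts in the other 5 libraries.

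**Figure D5:**
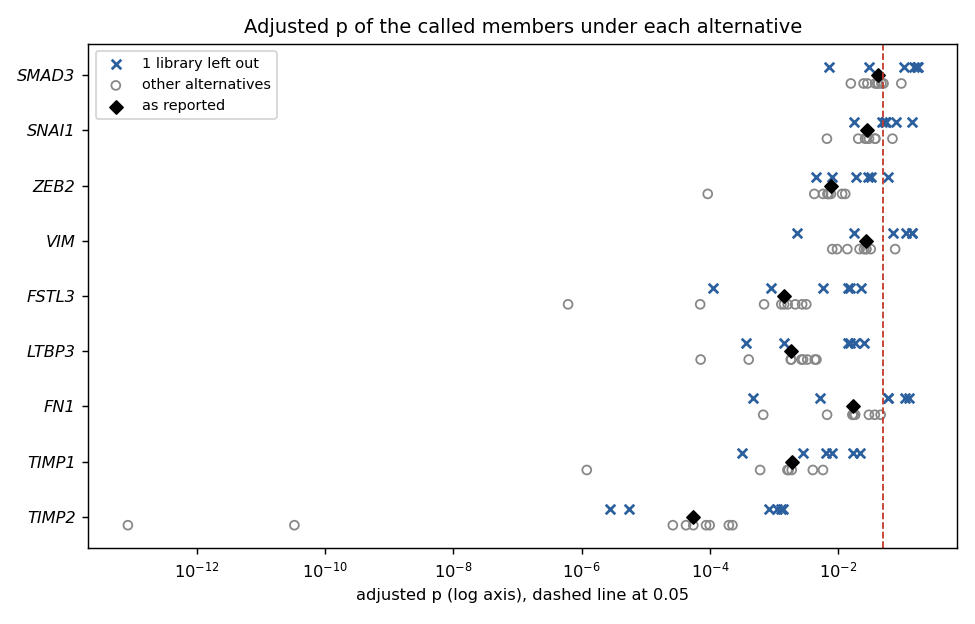
Adjusted p on a log axis for each called member as reported (black diamonds), with 1 library left out (blue crosses) and under the other alternatives (grey circles), with a dashed line at 0.05. FSTL3, LTBP3, TIMP1 and TIMP2 stay left of the line throughout, ZEB2 crosses it once at 0.0599, and SMAD3, SNAI1, VIM and FN1 cross it under several alternatives.

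Further genes of the pathway were taken from a list of 75, of which 74 were in the count table and 54 were tested, with 7 called higher and 3 called lower (13% and 5.56%, where 3.87% and 4.15% of all tested genes were). The median log2 change of the list was 0.08. The list too was chosen with earlier results of these data known, so its shares are description only. The rises included genes known as TGF-beta targets. JUNB, an AP-1 subunit, was at 33.5 ± 2.42 CPM in HK1-overexpressing and 22.4 ± 1.79 CPM in control cells (SD, n = 3 each, log2 0.58, edgeR adjusted p = 0.000462). TAGLN, the actin-binding transgelin, rose by 0.67 and PLAU, the urokinase plasminogen activator, by 0.65 on the log2 scale. TAGLN shares 47.8% of its exon bases with other genes, PLAU 36.3% and JUNB 20.7%. CDKN2B, a cell cycle inhibitor, rose by 0.31 and CDH2, N-cadherin, by 0.26 on the log2 scale, and both calls were lost without any 1 HK1-overexpressing replicate or without control replicate 3 (largest edgeR adjusted p = 0.167 and 0.102).

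Other TGF-beta targets and epithelial genes of that list were not called. SMAD7, the inhibitory SMAD induced by TGF-beta, averaged 56.3 ± 1.49 CPM in HK1-overexpressing and 52.6 ± 3.64 CPM in control cells (SD, n = 3 each, edgeR adjusted p = 0.424). CCN2, connective tissue growth factor, was at 177, 171 and 167 CPM in HK1-overexpressing libraries, against 192, 178 and 192 CPM in controls (log2 -0.12, edgeR adjusted p = 0.178). CDH1, the epithelial E-cadherin that SNAI1 and ZEB2 are known to repress, was at 47.2, 46.7 and 46.3 CPM in HK1-overexpressing libraries, against 43.1, 42.1 and 36.2 CPM in controls. All 3 HK1-overexpressing values of CDH1 lay above the controls, without a call (log2 0.20, edgeR adjusted p = 0.0951).

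The falls in that list were of SMAD6, TGIF2 and INHBB. SMAD6, the inhibitory SMAD of the BMP branch, was at 37.3, 39.5 and 39.5 CPM in HK1-overexpressing libraries, against 60.8, 50.6 and 51.2 CPM in controls (log2 -0.49, SE 0.0756, edgeR adjusted p = 0.00107), and was called under all 15 alternatives. TGIF2, a corepressor of SMAD2 and SMAD3, fell by 0.32 on the log2 scale (edgeR adjusted p = 0.0161), a call lost without any 1 HK1-overexpressing replicate (largest edgeR adjusted p = 0.110). TGIF2 shares 22.3% of its exon bases with other genes, among them TGIF2-RAB5IF, and their part in its count was not tested. INHBB fell by 0.65 on the log2 scale (edgeR adjusted p = 0.0206), a call lost with DESeq2, without HK1-overexpressing replicate 2 or 3 and without control replicate 3 (largest adjusted p = 0.108). Over the list, rises numbered 5 and falls 1 to 2 without any 1 HK1-overexpressing replicate or without control replicate 3, against 11 and 4 without control replicate 1 and 9 and 7 without control replicate 2.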

How the data were processed

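RNA was extracted with TRIZOL and libraries made with a stranded mRNA kit, per the labels' protocols. The authors deposited raw counts, made with featureCounts 1.5.3 on read pairs over exons summed by gene name, with GENCODE release 47 and no strand option set, per the file headers. Trim Galore, Subread and hg38 are named in the submitters' processing notes. Genes that share exon bases can lose fragments, and the opposite strand is not told apart. Exon length is the union over isoforms, so levels per kilobase of genes with many isoforms, such as SMAD2, read low.

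The 37 members and the list of 75 further genes were chosen with earlier results of these data known, and the rule named every called member, the most abundant uncalled member of each role, TGFB1, VIM and FN1. All columns were mapped by title and held whole numbers. Counts were filtered with filterByExpr and normalized by TMM, and groups were compared with edgeR 4.0.16 (robust quasi-likelihood, group only) in R 4.3.3. Log2 fold changes are edgeR's, with its default prior. Standard errors were taken as the unshrunken coefficient over the root of F, and 95% intervals of log2 changes use them with the total degrees of freedom. The script was tested on simulated data. Alternatives were RLE, library totals only, HK1 removed, no filter, DESeq2 1.42.0, limma-voom (limma 3.58.1), a minimum mean of 5 CPM, no robust dispersion, a replicate block and leaving out each library. 1 of the further genes is counted with its list but not reported here.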

Additional observations from a re-analysis of the deposited data

How the results depend on the processing

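Depth limits the scarce members (SNAI1, TIMP1, TIMP3, SPARC, the activin subunits), which had few counts in each library, and the scarcest were not tested. With 3 libraries a group, the count of calls rests on which libraries enter. Leaving out 1 library gave 4 to 11 members higher and 1 to 3 lower, and 286 to 1172 genes higher and 250 to 1085 lower over all tested genes. Scaling by library totals instead of TMM, 462 genes were lower over all, 66.3% of called genes were higher in place of 48.3%, the median log2 change of all genes was 0.05 in place of 0.01, and 8 members were higher and 2 lower. The other alternatives gave 5 to 10 members higher and 2 lower.

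Of 439 values of single members under 15 alternatives, 394 kept their direction and their side of the threshold, 21 lost the call, 16 gained one and 8 changed sign without a call. Those that changed sign were TGFBR1, TGFBR2, ZEB1 and FST. On the log2 scale, TGFBR2 was at 0.0256 and FST at 0.0109 when scaled by library totals, and TGFBR2 was at 0.00134 with a minimum mean of 5 CPM. With 1 library left out the values ran from -0.162 to 0.00915 for TGFBR1, -0.0686 to 0.0476 for TGFBR2, -0.119 to 0.112 for ZEB1 and -0.0502 to 0.00352 for FST. The cause was not tested.

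The replicate numbers are shared by the groups but showed no sign of pairing the libraries: deviations of same-numbered libraries from their group means correlated at 0.0071, 0.058 and -0.030 for numbers 1, 2 and 3, and not every library correlated best with its own number. These correlations cannot tell whether same-numbered libraries were handled together. The fit with the replicate number as a block gave 7 members higher and 2 lower, without SMAD3 (adjusted p = 0.0964) and VIM (adjusted p = 0.0771) and with TGFB2 (adjusted p = 0.0455) and INHBE (adjusted p = 0.0245), and 563 genes higher and 511 lower over all.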
